A study of Mus musculus with 48 samples.

Results

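The 10 genes described here mark inhibitory interneurons of the cerebral cortex or encode peptides that such cells release. They were taken by symbol (*Gad1*, *Gad2*, *Slc32a1*, *Sst*, *Pvalb*, *Vip*, *Npy*, *Cck*, *Tac1* and *Calb2*), and all 10 were found in both expression tables, among 27082 genes for B6 mice, 18939 genes for *APOE*-TR mice and 16952 genes in both. Cortex RNA came from 48 mice in 12 groups of 4, formed by sex, genotype and exposure. B6 mice are wild-type C57BL/6J mice, and *APOE*-TR mice carry human *APOE*3 or *APOE*4 in place of the mouse gene on a B6 background. Mice breathed filtered air (controls) or nPM, nano-sized particles collected beside an urban freeway and re-aerosolized, for 5 hours a day on 3 days a week. Exposure lasted 8 weeks in B6 mice (labelled age 4 months) and 15 weeks in *APOE*-TR mice (6 months), so strain, age, duration and table cannot be told apart.

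Inhibitory interneurons release GABA, which the glutamate decarboxylases GAD67 (*Gad1*) and GAD65 (*Gad2*) make from glutamate and the transporter VGAT (*Slc32a1*) packs into synaptic vesicles. Their main cortical classes are told apart by the calcium-binding protein parvalbumin (*Pvalb*) and the peptides somatostatin (*Sst*) and vasoactive intestinal peptide (*Vip*), and calretinin (*Calb2*) is found in part of the *Vip* class. Neuropeptide Y (*Npy*) is made by several classes, and cholecystokinin (*Cck*) by some interneurons and many excitatory neurons. *Tac1*, the precursor of substance P, is used by some interneurons and by projection neurons of the striatum. In RNA from whole tissue, fewer cells of a class and less RNA per cell cannot be told apart.

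In mm10 coordinates of the *APOE*-TR table, *Gad1* (chr2:70562129-70602015), *Gad2* (chr2:22622327-22693878) and *Slc32a1* (chr2:158610758-158615748) share a chromosome, as do *Npy* (chr6:49822710-49829508) and *Tac1* (chr6:7554885-7562979). The others are *Sst* (chr16:23889581-23890845), *Pvalb* (chr15:78191117-78206352), *Vip* (chr10:5639218-5647618), *Cck* (chr9:121489824-121495695) and *Calb2* (chr8:110142538-110168207). Promoter windows of *Sst*, *Vip* and *Cck* are shown because these 3 were the peptide genes that differed between the sexes in *APOE*-TR mice, although *Sst* ran the other way in B6 mice. Each window runs from 250 bases before to 50 bases after the start of the gene (RefSeq, GRCm38.p6). Capitals mark TGACG on either strand, the core of the cyclic AMP response element, whose full palindrome TGACGTCA holds the core on both strands.
Sst (chr16:23890795-23891094, minus strand): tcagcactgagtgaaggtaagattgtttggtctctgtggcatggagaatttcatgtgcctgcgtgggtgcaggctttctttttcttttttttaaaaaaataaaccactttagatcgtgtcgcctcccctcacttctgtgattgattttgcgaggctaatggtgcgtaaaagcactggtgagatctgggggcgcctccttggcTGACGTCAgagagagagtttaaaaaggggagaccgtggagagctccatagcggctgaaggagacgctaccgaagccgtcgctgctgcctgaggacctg
Vip (chr10:5638968-5639267, plus strand): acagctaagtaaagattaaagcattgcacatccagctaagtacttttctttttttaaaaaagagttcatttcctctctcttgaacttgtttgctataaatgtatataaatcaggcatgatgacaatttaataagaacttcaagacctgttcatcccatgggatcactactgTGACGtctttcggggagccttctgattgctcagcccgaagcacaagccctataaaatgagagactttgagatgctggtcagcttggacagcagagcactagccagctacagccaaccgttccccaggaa
Cck (chr9:121495645-121495944, minus strand): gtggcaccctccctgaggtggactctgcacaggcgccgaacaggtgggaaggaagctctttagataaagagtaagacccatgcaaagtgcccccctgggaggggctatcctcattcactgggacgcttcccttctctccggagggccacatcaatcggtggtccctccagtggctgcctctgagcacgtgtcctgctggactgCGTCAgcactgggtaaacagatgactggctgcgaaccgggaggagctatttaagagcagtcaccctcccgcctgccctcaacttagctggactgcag
Of the 9 members with a listed window, *Sst* alone held the palindrome, which is in 1.79% of all 32851 windows. The core was in 5 of the 9 (*Gad2*, *Sst*, *Vip*, *Cck* and *Tac1*) and in 20.8% of all windows. These are matches of letters, and nothing measured here bears on binding there.

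Levels are taken to be CPM (reads of a gene scaled to the total of its library) rescaled within each table by TMM, a factor that brings most genes to a common level, so B6 and *APOE*-TR levels are not comparable. Deposited values of the genes used summed to 526568 to 667121 in B6 mice and 670445 to 880442 in *APOE*-TR mice, on an unstated scale. *APOE*3 female controls 61 and 6 had the highest sums, 880442 and 792914. In units of mega-reads (M), libraries held 17.8 to 31.3 M in *APOE*-TR mice and 2.05 to 24.4 M in B6 mice, and every member had at least 15 reads in every mouse. Some libraries labelled cortex had low levels of markers of cortical excitatory neurons. B6 male controls 0 and 2 had 59.8 and 129 CPM of *Slc17a7* (the vesicular glutamate transporter VGLUT1), against 296 to 688 CPM in the 13 B6 mice other than controls 0, 2 and 6. The cortical transcription factor *Fezf2* had no reads in control 0. Control 6 had 243 CPM of *Slc17a7*. Over the 11 glutamatergic markers the sums were 1180.4, 1739.8 and 2109 CPM in controls 0, 2 and 6, and 2252 to 3904 in the other 13. *APOE*3 female controls 6 and 61 had sums of 1463 and 1144 CPM, against 2569 to 4196 in the other 30 *APOE*-TR mice. Values without these libraries follow the results of the members that rest on them.

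Levels between genes were compared per kilobase of the longest annotated transcript. *Cck* had the highest mean in all 8 *APOE*-TR groups (163 to 247 CPM per kilobase) and *Sst* the next (103 to 181), although mice overlapped between them in *APOE*3 female controls and *APOE*4 nPM females. *Gad1*, *Npy* and *Pvalb* took the next places, with *Gad1* at 72.6 to 88.3 CPM per kilobase. *Gad2*, *Slc32a1*, *Tac1* and *Vip* followed in an order that changed between groups, and most neighbours among them overlapped between mice. *Calb2* was lowest in all 8 (3.59 to 8.81) and overlapped with its neighbour in *APOE*3 female controls alone. In B6 mice *Sst* or *Npy* led in each group, and *Cck* came next except in male controls, where it was lower.

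**Figure D1:**
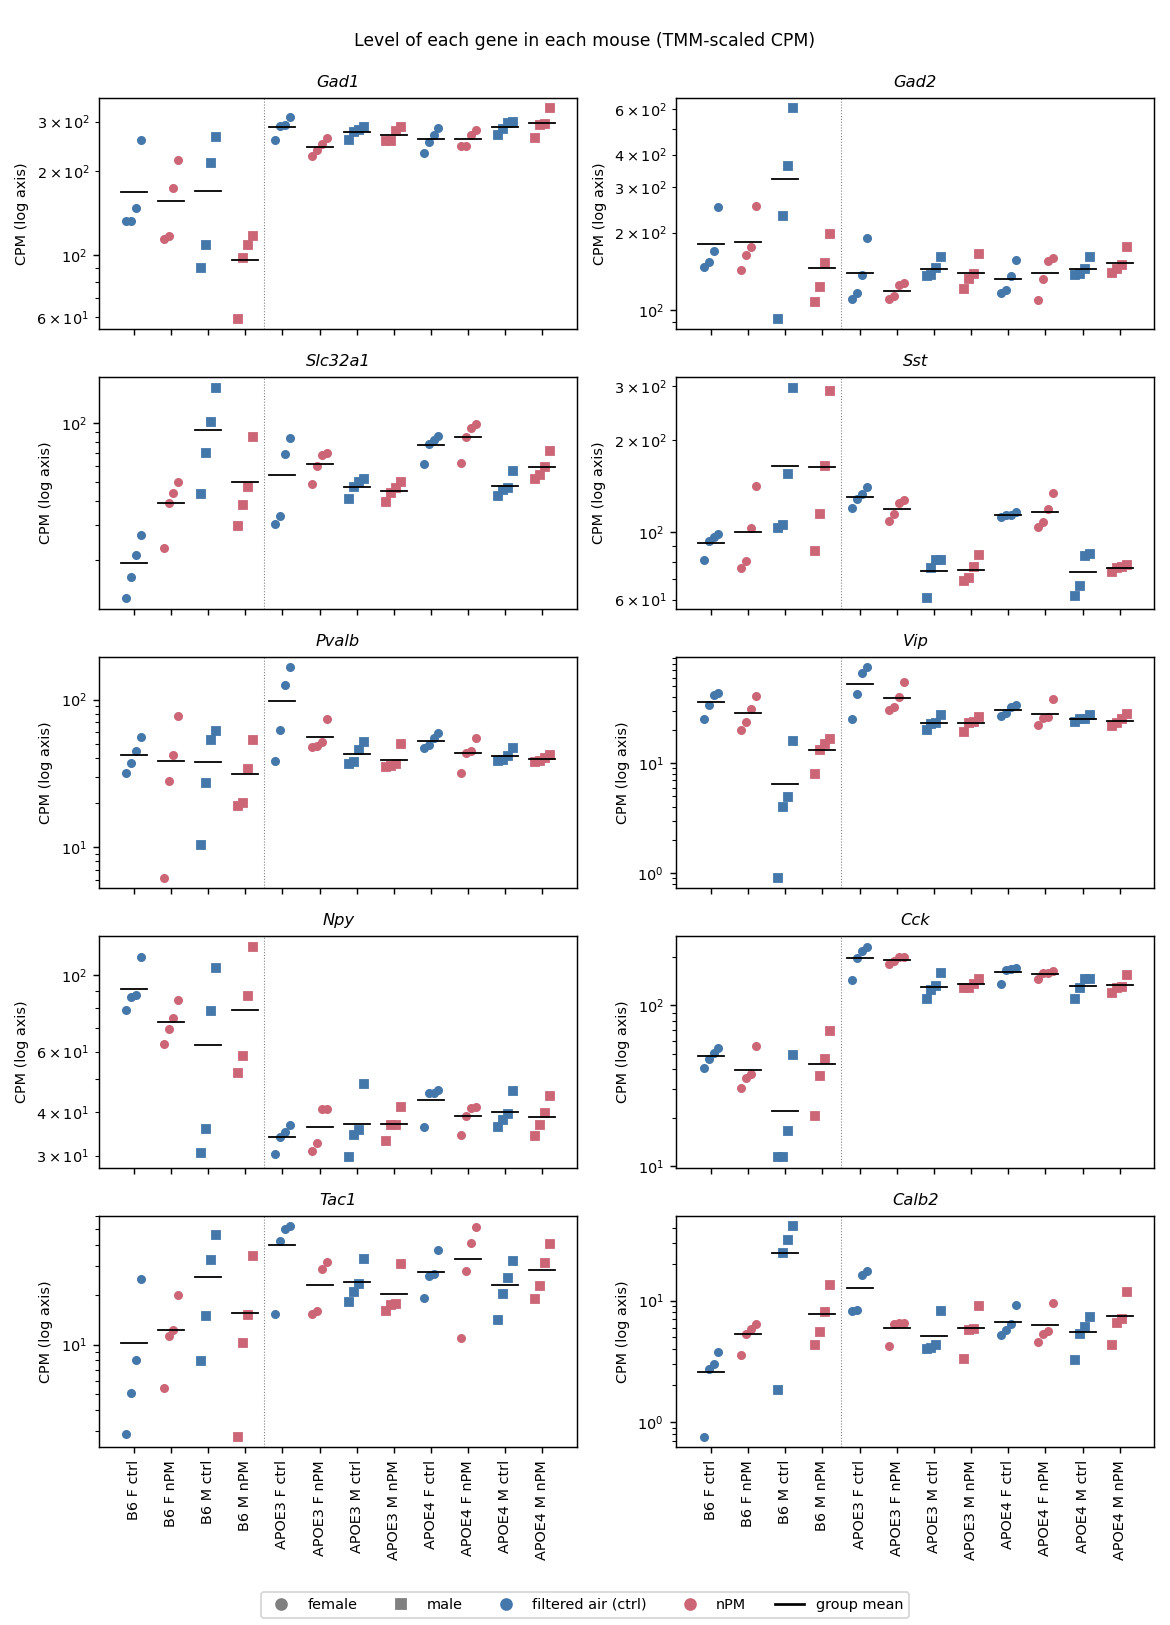
TMM-scaled CPM (log axis) of each gene in every mouse, by group; circles are females, squares males, blue filtered air, red nPM, and bars the means of 4 mice. *Sst* splits *APOE*-TR mice by sex, *Vip* splits B6 mice by sex (20.2 to 43.5 CPM in females, 0.910 to 16.7 in males), and B6 male controls are widely spread in most panels.

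The first question was whether nPM changed these genes over all mice. No member was a DEG (differentially expressed gene, here an unadjusted p under 0.005, the threshold the study used) in the limma model of 48 mice with terms for sex, genotype and nPM. Among all 11068 genes 1.37% were DEGs, with 0 at 5% FDR in limma and 1475 at an unadjusted p under 0.05. Of the 10 members 5 had positive and 5 negative estimates, with a median log2 difference of -0.052 beside 0.023 over all genes. The lowest p was that of *Gad1*, with a log2 difference of -0.18 (SE 0.10, adjusted p = 0.423, limma). The estimate largest in size was that of *Pvalb*, at -0.30 (SE 0.17, adjusted p = 0.440, limma). Those of *Sst* and *Npy* lay nearest to 0, with 95% intervals of -0.25 to 0.25 and -0.19 to 0.20. *Calb2* had the widest interval, -0.60 to 0.39. In *APOE*-TR mice alone *Gad1* and *Gad2* were at -0.057 (SE 0.043) and -0.029 (SE 0.066) (-0.024 and -0.058 without controls 6 and 61), and in 46 mice without B6 male controls 0 and 2 at -0.10 (SE 0.089) and -0.037 (SE 0.086).

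Each sex and genotype was then fitted on its own, 4 mice against 4. In B6 females *Slc32a1* rose under nPM and was the single DEG among the members in these 6 fits. It was at 21.2, 12.8, 16.4 and 26.9 CPM in controls and 44.1, 49.8, 39.2 and 23.02 CPM under nPM, so that 3 nPM mice lay above every control and mouse 53 lay among them. The log2 difference was 0.99 (SE 0.29, adjusted p = 0.413, limma), and 1.13% of all 14726 genes were DEGs. It was no DEG when control 41 or 42 or nPM mouse 50, 51 or 52 was left out (log2 differences of 0.82 to 0.97), without TMM or without a filter on reads. Summed striatal markers, 10 genes with reads in every mouse, were 112 to 924 CPM in those controls and 420.2 to 1462 CPM under nPM. Of these 10 genes 9 had positive estimates (median 0.99, beside 0.057 over all genes), and their part in the difference was not tested. The decarboxylases gave other values, with *Gad1* at 168 ± 61.02 CPM in controls and 156 ± 49.8 under nPM, and *Gad2* at 181 ± 47.9 and 184 ± 48.2 (SD, n = 4). *Calb2* was at 2.57 ± 1.29 and 5.28 ± 1.25 CPM (SD, n = 4), a log2 difference of 1.02 (SE 0.42, adjusted p = 0.494, limma) that missed the DEG threshold.

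In B6 males no member was a DEG, as 0.235% of all 15345 genes were, but several estimates were large. *Vip* was at 0.910, 3.996, 15.8 and 4.88 CPM in controls 0, 2, 3 and 6 and at 15.1, 7.98, 16.7 and 13.1 CPM under nPM. Control 3, with cortical glutamatergic markers in the range of the other mice, lay among the nPM mice, and the other controls lay below them. *Calb2* ran the other way, at 40.9, 31.3, 1.84 and 24.7 CPM in the same controls and 4.35 to 13.4 CPM under nPM. *Gad2* was at 362, 605, 92.96 and 231 CPM in the controls and 108 to 198 CPM under nPM. Log2 differences were 1.45 (SE 0.55) for *Vip*, 1.10 (SE 0.43) for *Cck*, -0.72 (SE 0.33) for *Gad1*, -0.89 (SE 0.41) for *Gad2* and -0.83 (SE 0.36) for *Slc32a1*, each with an adjusted p near 1 in limma. Without controls 0 and 2 they were 0.50, 0.72, -0.091, -0.052 and -0.26, again with no DEG, beside 0.154% of all genes. Without control 3 instead, 5 members were DEGs (*Gad2*, *Slc32a1*, *Vip*, *Cck* and *Calb2*), beside 1.54% of all genes. With control 3 alone kept, its spread taken to be that of the nPM mice, *Vip* and *Calb2* turned to -0.30 and 1.71. Control 3 was itself at the edge for other markers. Its astrocyte sum (1219 CPM) and its hippocampal and thalamic sum (118 CPM) were the lowest of all B6 mice. In nPM males these sums were at least 1591 and 130 CPM. Hippocampal and thalamic markers summed to 337, 318 and 220.5 CPM in controls 0, 2 and 6 and to 118 to 231 in the other 13 B6 mice. Striatal markers, of which 0 of 10 had positive estimates (median -0.76), summed to 642 to 2455 CPM in male controls and 126 to 2072 CPM under nPM, and cortical glutamatergic markers had 8 of 10 positive (median 1.18). Their part in the members' values was not tested.

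**Figure D2:**
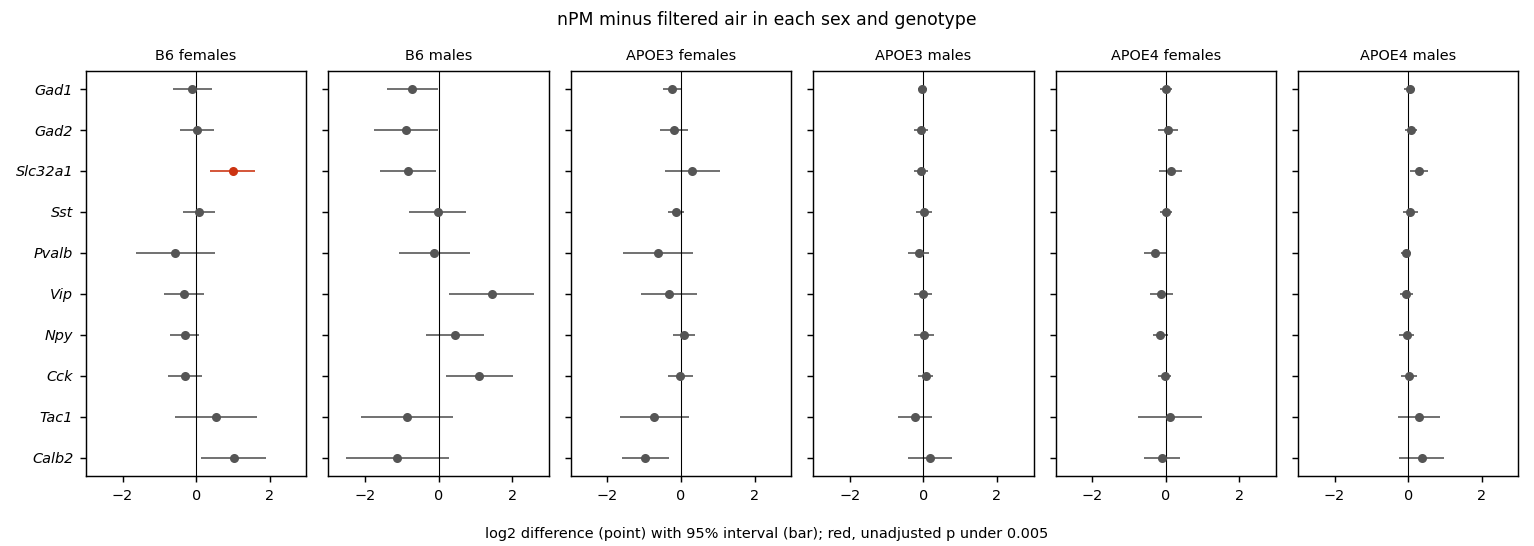
Log2 difference between nPM and filtered air (x axis) of each gene (y axis) in 6 fits of 4 against 4 mice; points are estimates, bars 95% intervals, and red marks an unadjusted p under 0.005. *Slc32a1* in B6 females (0.99) is the single red point, and bars are wide in B6 males.

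In *APOE*3 females no member was a DEG, as 0.623% of all 16380 genes were. *Calb2* came nearest, at 16.3, 8.28, 17.4 and 8.41 CPM in controls 52, 6, 61 and 63 and 6.51, 4.27, 6.53 and 6.43 CPM under nPM. These groups did not overlap, which held for 6.7% of all genes, and the log2 difference was -0.96 (SE 0.28, adjusted p = 0.232, limma). It was -0.95 (SE 0.28) without controls 6 and 61, and a DEG without control 6 or without control 63 (-1.13 and -1.12), beside 0.292% and 1.3% of all genes. *Gad1* was at 288 ± 22.4 CPM in controls and 243 ± 15.6 under nPM (SD, n = 4), with a log2 difference of -0.24 (SE 0.10, adjusted p = 0.232, limma). *Pvalb* was at 38.3, 126, 166 and 62.3 CPM in the same controls, high in controls 6 and 61, and at 47.6 to 74.3 CPM under nPM. *Slc32a1* was at 83.7, 33.6, 30.4 and 69.4 CPM in them, low in the same pair, and at 48.6 to 70.6 CPM under nPM. Without that pair the estimate of *Pvalb* turned from -0.62 to 0.16, that of *Slc32a1* from 0.31 to -0.31 and that of *Vip* from -0.32 to 0.22. *Tac1* moved from -0.72 (SE 0.41) to -1.22 (SE 0.30) and was then the single DEG among the members, beside 0.486% of all genes. Striatal markers summed to 1230.4 and 1187 CPM in the controls that stayed and to 504 to 780.3 CPM under nPM. In the fit with all controls 10 of 11 cortical glutamatergic markers had positive estimates (median 0.39) with 1 DEG among them, *Fezf2*. Positive were 1 of 7 microglia markers (median -0.35), 2 of 7 astrocyte markers (-0.30), 1 of 7 oligodendrocyte markers (-0.26) and 0 of 5 choroid plexus markers (-1.06), and the part of these markers was not tested.

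The remaining *APOE*-TR fits gave no DEG among the members. All genes called were 0.148% in males with *APOE*3, 0.242% in females with *APOE*4 and 0.178% in males with *APOE*4. In *APOE*3 males the estimates ran from -0.24 (SE 0.21) for *Tac1* to 0.18 (SE 0.27) for *Calb2*. In *APOE*4 females *Pvalb* had the lowest p, at 52.7 ± 5.56 CPM in controls and 43.5 ± 9.24 under nPM (SD, n = 4), a log2 difference of -0.29 (SE 0.14, adjusted p = 0.759, limma). In *APOE*4 males *Slc32a1* was at 42.2 to 56.8 CPM in controls and 51.4 to 72.2 under nPM, with a log2 difference of 0.30 (SE 0.11, adjusted p = 0.956, limma), and it was a DEG without control 91 (0.39), beside 0.639% of all genes. *Sst* in *APOE*4 females had an interval of -0.15 to 0.18. Striatal markers had positive estimates in 0 of 10 genes in *APOE*3 males (median -0.28). They were positive in 10 of 10 in *APOE*4 females (0.21) and 10 of 10 in *APOE*4 males (0.36). Their part in the members' values was not tested.

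Responses to nPM were also compared between groups. Between alleles no member was called (0.677% of all 15958 genes were), and *Gad1* had the lowest p, with a response higher in *APOE*4 by 0.16 (SE 0.077, adjusted p = 0.446, limma). Between sexes none was called either (1.56% of all genes were). *Slc32a1* was nearest, with a response higher in females by 0.68 (SE 0.23, adjusted p = 0.318, limma), and *Vip* and *Cck* were at -0.72 (SE 0.29) and -0.51 (SE 0.21). Without B6 male controls 0 and 2 these 3 were 0.49, -0.40 and -0.38, and without control 6 as well 0.38, -0.14 and -0.035. Several single mice decided whether *Slc32a1* was called, and without B6 male control 3 it was called with *Vip* and *Cck*, beside 2.66% of all genes. A contrast of the response between *APOE*3 females and the remaining *APOE*-TR groups was chosen with earlier results of these data known. The response of *APOE*3 females against the mean response of the remaining *APOE*-TR groups called 16% of all 15958 genes and 1 of 10 members, a share below that background. It was *Calb2*, lower by a log2 difference of -1.11 (SE 0.36, adjusted p = 0.0297, limma). At 5% FDR 4290 of all 15958 genes and 2 members passed. The second was *Gad1*, at -0.24 (SE 0.089, adjusted p = 0.0441, limma). Without controls 6 and 61 *Calb2* was no longer called, at -1.09 (SE 0.40), beside 1.75% of all genes. Leaving out any 1 of 19 of the 32 mice, control 61 among them, also ended the call.

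The next comparison was *APOE*4 with *APOE*3. No member passed 5% FDR in the 48-mouse model, where 0.325% of 11068 genes did, and 5 estimates were positive and 5 negative. The largest was *Slc32a1*, higher in *APOE*4 by 0.37 (SE 0.21, adjusted p = 0.428, limma). Fitted on *APOE*-TR mice alone it was 0.37 (SE 0.11, adjusted p = 0.0447, limma) and passed, as did 5.48% of all genes. Without controls 6 and 61 it was 0.24 (SE 0.077, adjusted p = 0.0701, limma) in that fit and no longer passed, beside 4.57% of all genes, and 0.28 (SE 0.22) in the 48-mouse model. In females *Slc32a1* was at 54.3 ± 26.4 and 76.7 ± 10.48 CPM in controls with *APOE*3 and *APOE*4, and at 62.0 ± 9.88 and 85.0 ± 15.97 CPM under nPM (SD, n = 4). In males the same values were 47.3 ± 4.88, 47.9 ± 6.25, 45.0 ± 4.32 and 59.3 ± 9.21 CPM. Striatal markers had positive estimates in 10 of 10 genes of the 48-mouse model (median 0.19, beside 0.016 over all genes). The same held for 10 of 10 under nPM in females (median 0.61) and 10 of 10 in males (0.39). In filtered air it held for 5 of 10 in females (median -0.033) and 1 of 10 in males (-0.21). Their sums under nPM were 504 to 780.3 and 320.0 to 1678 CPM in *APOE*3 and *APOE*4 females and 465 to 964 and 495 to 1351 CPM in males, overlapping in both sexes, and their part in the difference was not tested.

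Within sex and exposure again no member passed 5% FDR. All genes called were 0.226% and 0.433% in female and male controls, and 0.139% and 0.475% under nPM. In female controls *Npy* was higher in *APOE*4 by 0.34 (SE 0.12, adjusted p = 0.0792, limma) and *Calb2* was at -0.83 (SE 0.29, adjusted p = 0.0820, limma), neither past the threshold. These values use the controls of the nPM comparison in *APOE*3 females. *Sst* did not overlap there (112 to 116 CPM in *APOE*4, 119.6 to 141 in *APOE*3), as for 27.8% of all genes, with a log2 difference of -0.19 (SE 0.088, adjusted p = 0.134, limma). *Slc32a1*, *Pvalb* and *Vip* were at 0.62, -0.68 and -0.66 with all controls and at -0.0020, 0.10 and -0.12 without controls 6 and 61. Without control 52 instead, 4 members passed (*Slc32a1*, *Pvalb*, *Vip* and *Cck*), beside 39% of all genes.

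Under nPM *Cck* did not overlap between alleles in females, which held for 5.77% of all genes, at 200.3, 181, 199 and 188 CPM in *APOE*3 and 158, 159, 145 and 162 in *APOE*4 mice. The log2 difference was -0.30 (SE 0.069, adjusted p = 0.283, limma). *Slc32a1* did not overlap in males, as for 5.89% of all genes, at 49.97, 39.6, 44.1 and 46.3 CPM in *APOE*3 and 51.4, 59.4, 72.2 and 54.2 in *APOE*4 mice. Its log2 difference was 0.39 (SE 0.10, adjusted p = 0.188, limma). In nPM males every *APOE*3 mouse lay below every *APOE*4 mouse for *Slc32a1*, and in nPM females above for *Cck*. In male controls all estimates lay between -0.076 (SE 0.23) for *Tac1* and 0.13 (SE 0.13) for *Npy*.

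**Figure D3:**
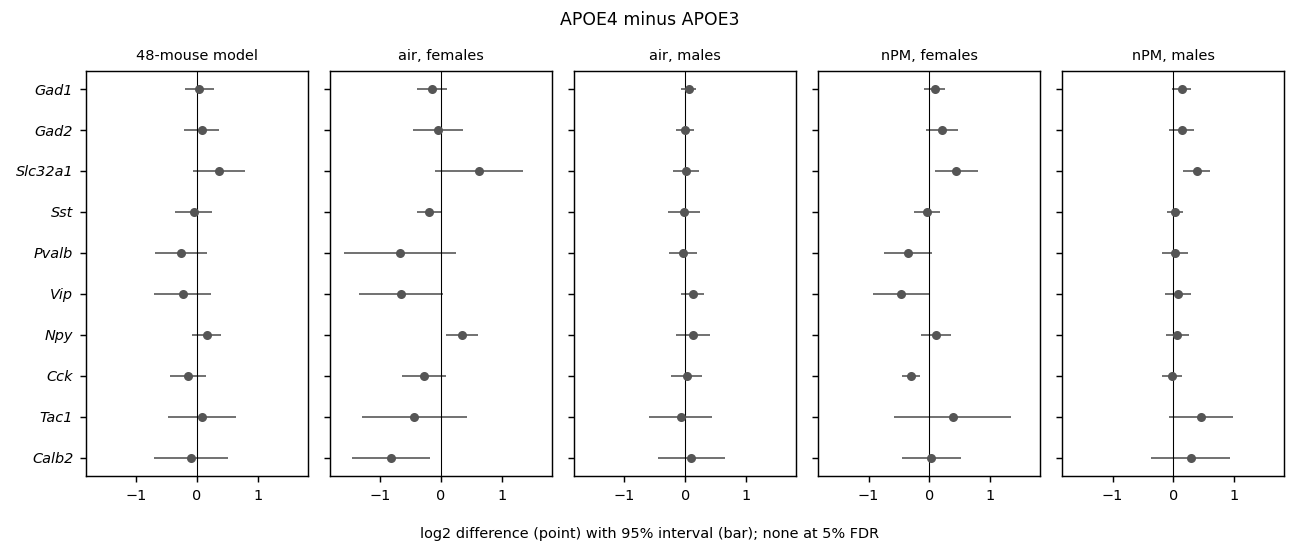
Log2 difference between *APOE*4 and *APOE*3 (x axis) of each gene (y axis) in the 48-mouse model and in 4 fits of 4 against 4 mice; points are estimates and bars 95% intervals. None of the 10 genes passed 5% FDR, and *Slc32a1* lies at 0.37 in the 48-mouse model and 0.39 in nPM males.

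Sex was a term of the same model. Of the 10 members 2 passed 5% FDR, below the background of 34.1% of all genes, and both were higher in females. *Vip* was higher by 1.03 (SE 0.19, adjusted p = 9.08e-05, limma) and *Cck* by 0.50 (SE 0.12, adjusted p = 0.00177, limma). In *APOE*-TR mice females had 17.8 to 22.3 M reads and males 22.4 to 31.3 M, so sex and depth cannot be told apart there.

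*Vip* was at 20.2 to 43.5 CPM in the 8 B6 females and 0.910 to 16.7 in the 8 B6 males, without overlap, as for 2.41% of all genes. The lowest males were controls 0, 2 and 6, but control 3 and the nPM males also lay below every female. In *APOE*3 mice *Vip* was at 45.7 ± 17.7 CPM in females and 23.2 ± 2.75 in males, and in *APOE*4 mice at 29.2 ± 5.14 and 24.8 ± 2.10 (SD, n = 8). The difference was 1.99 (SE 0.37, adjusted p = 0.000760, limma) in B6 mice alone and 0.55 (SE 0.12, adjusted p = 0.000299, limma) in *APOE*-TR mice alone, and 0.71 (SE 0.11, adjusted p = 1.45e-05, limma) over mice without B6 male controls 0, 2 and 6. *Cck* was at 195 ± 25.9 and 133 ± 14.7 CPM in *APOE*3 females and males and at 158 ± 12.1 and 132 ± 14.9 CPM in *APOE*4 (SD, n = 8). In B6 mice alone its difference, 0.68 (SE 0.29, adjusted p = 0.0961, limma), missed the threshold. Without male controls 0, 2 and 6 it was -0.031 (SE 0.23) there and 0.30 (SE 0.087, adjusted p = 0.00639, limma) in the model of all genotypes.

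*Sst* separated the sexes of both *APOE* alleles. It was at 108 to 141 CPM in *APOE*3 females and 60.6 to 84.3 in males, and at 103 to 134 and 61.8 to 84.7 CPM in *APOE*4 mice. Absence of overlap held for 17.2% of all genes in *APOE*3 and 11.9% in *APOE*4 mice. In *APOE*-TR mice alone *Sst* was higher in females by 0.67 (SE 0.050, adjusted p = 3.74e-12, limma), and in B6 mice alone it was lower, at -0.65 (SE 0.22, adjusted p = 0.0387, limma), with 76.4 to 141 CPM in females and 86.9 to 297 in males. In *APOE*-TR mice alone 6 members passed 5% FDR, near the 60.2% of all genes. Besides *Sst*, *Vip* and *Cck* (0.40) they were *Slc32a1* (0.42), *Pvalb* (0.48) and *Gad1* (-0.10). Without controls 6 and 61 they were the same 6, beside 57.6%, with *Slc32a1* at 0.55, *Pvalb* at 0.30, *Vip* at 0.41 and *Sst* at 0.66. In B6 mice alone 4 passed, beside 21.7% of all genes, the others being *Slc32a1* (-1.21) and *Calb2* (-1.51). Without male controls 0, 2 and 6 only *Vip* (1.10) and *Gad1* (0.66) passed, beside 11.4% of all genes, and *Sst*, *Slc32a1* and *Calb2* were at -0.64 (SE 0.23), -0.55 (SE 0.27) and -0.24 (SE 0.35). The opposite signs of *Sst* and *Slc32a1* in B6 and *APOE*-TR mice were not tested as a difference.

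Members were also compared with each other within groups, as log2 levels minus the group mean, over 45 pairs. By Pearson's r, 8 pairs in the 32 *APOE*-TR mice and none in the 16 B6 mice passed 5% FDR in a permutation test within groups. *Gad2* and *Tac1* had r = 0.785 (rho = 0.758, permutation p = 1e-05 for r and 2e-05 for rho, adjusted p = 0.00045 for r) in *APOE*-TR mice, 1e-05 being the smallest p these permutations can give, and r = 0.638 (rho = 0.712, permutation p = 0.00712 and 0.00903) in B6 mice. *Gad2* and *Cck* ran in opposite directions, with r = -0.737 (rho = -0.641, permutation p = 4e-05 for r and 0.00035 for rho, adjusted p = 0.00090 for r) and, in B6 mice, r = -0.760 (rho = -0.638, permutation p = 0.0150 and 0.0214). *Pvalb* and *Vip* had r = 0.846 (rho = 0.663, permutation p = 0.00058 for r and 0.00287 for rho, adjusted p = 0.00810 for r) in *APOE*-TR mice, 0.681 in the 28 mice outside the *APOE*3 female controls, and r = 0.195 in B6 mice. *Slc32a1* and *Pvalb* had r = -0.840 (rho = -0.663, permutation p = 0.00072 for r and 0.00232 for rho, adjusted p = 0.00810 for r), then -0.545 in those 28 mice and r = 0.088 in B6 mice. *Sst* and *Npy*, often made by the same cells, had r = 0.550 (rho = 0.533, permutation p = 0.00646 for r and 0.00528 for rho, adjusted p = 0.0415 for r) and, in B6 mice, r = 0.662 (rho = 0.624, permutation p = 0.0578 and 0.0574). Without the 2 mice whose deviation lay farthest from its median for the gene named first, r in *APOE*-TR and B6 mice was 0.820 and 0.679 for *Gad2* with *Tac1*, -0.596 and -0.481 for *Gad2* with *Cck*, 0.757 and 0.267 for *Pvalb* with *Vip*, -0.704 and 0.161 for *Slc32a1* with *Pvalb* and 0.484 and 0.508 for *Sst* with *Npy*. The other 3 pairs that passed in *APOE*-TR mice were *Slc32a1* with *Vip* (r = -0.796, permutation p = 0.00128, adjusted p = 0.0111, rho = -0.610, -0.581 in the 28 mice and -0.681 without the 2 farthest, and r = -0.533 in B6 mice), *Vip* with *Cck* (r = 0.624, permutation p = 0.00148, adjusted p = 0.0111, rho = 0.503, 0.333 in the 28 mice and 0.382 without the 2 farthest, and r = 0.641 in B6 mice) and *Gad2* with *Slc32a1* (r = 0.633, permutation p = 0.00788, adjusted p = 0.0443, rho = 0.456, 0.393 in the 28 mice and 0.498 without the 2 farthest, and r = 0.463 in B6 mice). Of these 8 pairs, *Gad2* with *Slc32a1* did not pass 5% FDR by rho in *APOE*-TR mice (permutation p = 0.0407, adjusted p = 0.153). For the 5 pairs described first, r in those 28 mice and in the 12 B6 mice outside the male controls was 0.860 and 0.632 for *Gad2* with *Tac1*, -0.573 and -0.623 for *Gad2* with *Cck* and 0.612 and 0.647 for *Sst* with *Npy*, and in those 12 mice 0.501 for *Pvalb* with *Vip* and 0.117 for *Slc32a1* with *Pvalb*.

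For each member, the gene outside the list with the highest r over the *APOE*-TR mice was then read in B6 mice (10 pairs). *Tac1* went with *Penk*, the enkephalin precursor abundant in the striatum, which ranged from 19.1 to 1164 CPM over B6 mice and from 59.5 to 411 CPM over *APOE*-TR mice. For that pair r was 0.969 in *APOE*-TR mice and 0.915 in B6 mice (permutation p = 2e-05, adjusted p = 0.00020). For *Gad2* with *Pde1c*, r was 0.877 in *APOE*-TR mice and 0.847 in B6 mice (permutation p = 0.00057, adjusted p = 0.00190), and for *Pvalb* with *Gtdc1*, r was 0.956 in *APOE*-TR mice and 0.792 in B6 mice (permutation p = 6e-05, adjusted p = 0.00030). For *Npy* with *Kcnip3*, r was 0.695 in *APOE*-TR mice and 0.733 in B6 mice (permutation p = 0.0205, adjusted p = 0.0410), and for *Cck* with *Drg2*, r was 0.882 in *APOE*-TR mice and 0.716 in B6 mice (permutation p = 0.0153, adjusted p = 0.0382). Spearman's rho in B6 mice passed 5% FDR for the pairs of *Tac1*, *Gad2* and *Pvalb* (0.912, 0.832 and 0.882) and not for those of *Npy* and *Cck* (0.647 and 0.559). The pairs of *Gad1* with *Kctd8* (r = 0.509 in B6 mice), *Calb2* with *Gng4* (0.631), *Sst* with *Rasgef1c* (0.421), *Slc32a1* with *Rap1gap* (0.242) and *Vip* with *Saraf* (-0.160) did not pass in B6 mice. Without the 2 B6 mice whose deviation in the gene outside the list lay farthest from its median, r was 0.88 for the pair of *Tac1*, 0.736 for that of *Gad2*, 0.729 for *Pvalb*, 0.575 for *Npy* and 0.496 for *Cck*. In the 12 B6 mice outside the male controls r was 0.943 for *Tac1*, 0.774 for *Gad2*, 0.710 for *Pvalb*, 0.556 for *Npy*, 0.641 for *Cck*, 0.475 for *Gad1*, 0.194 for *Calb2*, 0.412 for *Sst*, 0.357 for *Slc32a1* and 0.571 for *Vip*, each with its gene outside the list.

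**Figure D4:**
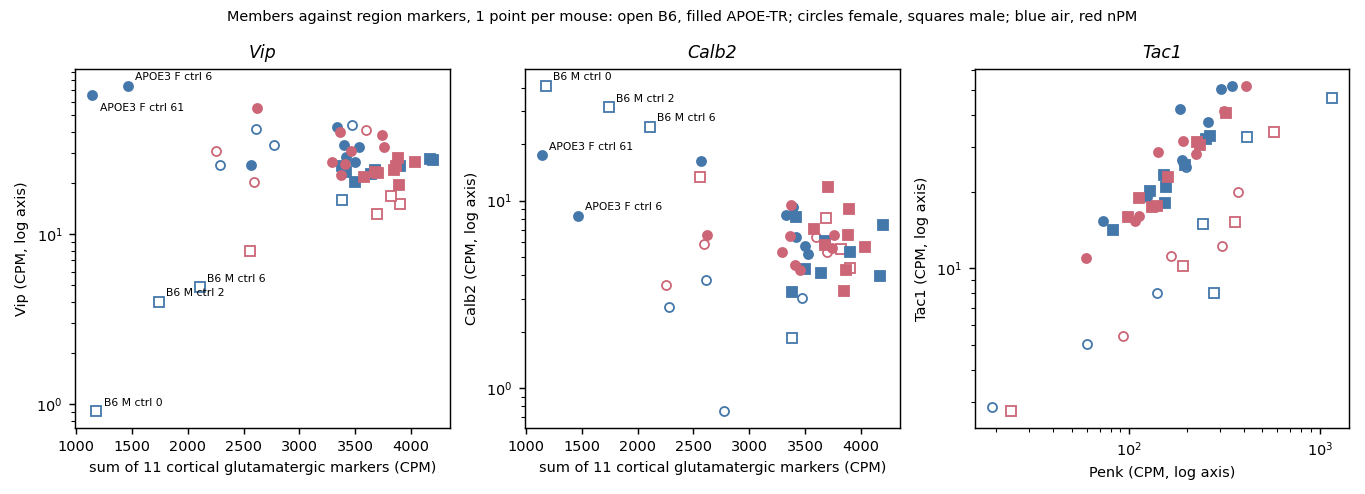
*Vip* and *Calb2* (CPM, log axis) against the summed CPM of 11 cortical glutamatergic markers, and *Tac1* against *Penk*, 1 point per mouse; open points are B6 and filled points *APOE*-TR mice, circles females, squares males, blue filtered air, red nPM. B6 male controls 0, 2 and 6 sit at low sums (1180.4 to 2109 CPM) with low *Vip* and high *Calb2*, and *APOE*3 female controls 6 and 61 at low sums with high *Vip*.

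Other genes of these pathways were read in the same fits. In the 48-mouse model for nPM, DEGs were 0 of 8 genes tested for GABA uptake and turnover, 0 of 13 interneuron transcription factors, 0 of 15 markers of other interneuron classes, 0 of 9 peptide receptors and 0 of 11 genes of peptide processing and granules. The somatostatin receptor *Sstr3* was at 0.34 (SE 0.12, adjusted p = 0.321, limma). In *APOE*3 females none of these lists had a DEG, and the cholecystokinin receptor *Cckbr* was at 0.65 (SE 0.21, adjusted p = 0.232, limma). Between alleles 1 gene of these lists passed 5% FDR in the 48-mouse model, where 0.325% of all 11068 genes did. It was *Chga* (chromogranin A of dense-core granules), 1 of the 11 genes of peptide processing and granules. *Chga* was higher in *APOE*4 by 0.50 (SE 0.12, adjusted p = 0.0430, limma). No gene of these lists was refitted without the named libraries, here or by sex.

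By sex, 4 markers of other interneuron classes were higher in females and 2 lower, of 15, where 34.1% of all genes were called in either direction, a background that also bears on the counts of the other lists. *Crh*, the corticotropin-releasing hormone, was higher by 0.84 (SE 0.095, adjusted p = 1.75e-08, limma) and calbindin (*Calb1*) by 0.58 (SE 0.088, adjusted p = 6.3e-06, limma), and *Kcnc1*, a potassium channel of fast-spiking cells, was at -0.37 (SE 0.10, adjusted p = 0.00367, limma). Of 8 genes of GABA uptake and turnover 3 were lower in females, among them the transporter *Slc6a11* at -0.50 (SE 0.12, adjusted p = 0.00116, limma). Of 11 genes of peptide processing 4 were higher, among them carboxypeptidase E (*Cpe*) at 0.39 (SE 0.062, adjusted p = 1.2e-05, limma). Of 13 transcription factors 2 were higher and 1 lower, the latter *Lhx6* of *Sst* and *Pvalb* cells at -0.42 (SE 0.12, adjusted p = 0.00450, limma), and of 9 receptors 1 was higher and 1 lower, the latter the substance P receptor *Tacr1* at -0.64 (SE 0.21, adjusted p = 0.0170, limma). Of 7 endothelial markers 6 were lower in females and of 7 astrocyte markers 5 were higher, with medians of -0.71 and 0.32, and their part in the members' differences was not tested. Summed endothelial markers were 38.2 to 77.1 CPM in *APOE*-TR females and 89.7 to 147 in males. In B6 mice they overlapped, at 63.9 to 129 CPM in females and 62.4 to 109 in males. Astrocyte sums overlapped between the sexes in both sets of mice.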

How the data were processed

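RNA of the cerebral cortex was mapped by the authors with TopHat2 2.0.8b to mm10, restricted to unique reads, in Partek. The deposited values were taken to be CPM, on an unstated scale, made by the authors in 1 table for B6 and 1 for *APOE*-TR mice. Low CPM values were read counts plus 1 times a step, and 96.1 to 97.1% of them came out whole in *APOE*-TR mice and 87.7 to 98.4% in B6 mice, where reads are estimates. CPM were rescaled by TMM (edgeR 4.0.16) within each table, taken as log2 with 0.5 added, and tested with limma 3.58.1 (trend) in R 4.3.3 on genes with at least 1 read in every mouse of a fit. P-values were adjusted by Benjamini-Hochberg over all genes. Thresholds were an unadjusted p of 0.005 for nPM and its interactions and 5% FDR for allele and sex. On simulated counts limma recovered 198 of 200 changed genes for *APOE*3 females (16653 genes) and 200 of 200 for 48 mice (13959 genes). The planted changes were larger than any member's estimate in those nPM comparisons. They lay in well-read genes, and no simulated library deviated as the named libraries did. These shares therefore do not tell how often changes of the members' size would be found.

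The members and lists were chosen with earlier results of these data known. All members are named, and of each other list up to 3 genes of lowest p in the 48-mouse comparisons and in *APOE*3 females, some of which are not reported here. Transcript lengths come from GENCODE. The column of *APOE*3 female control 6 was placed by its genotype, sex and exposure, since its number matches no sample. Each sample is 1 mouse, so p-values measure the spread between mice. Alternatives were other filters, pseudocounts of 0.1 and 2, other scalings (none, DESeq2 1.42.0 size factors), voom (with ComBat for comparisons over 48 mice), sample weights, a shared spread, edgeR quasi-likelihood on recovered reads, subsets of mice, single mice left out and, added after the data were seen, the named libraries left out.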

Additional observations from a re-analysis of the deposited data

Results flagged for a closer look

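In 9 of 120 sets of 4 values (10 genes in each of 12 groups, all genes of a group read in the same mice) 1 value lay far from the other 3, where chance gives about 1 in 20. They were *Calb2* in *APOE*3 nPM female 59 (4.27 CPM) and in *APOE*3 male control 73 (8.17 CPM), *Cck* in B6 male control 3 (49.1 CPM) and in *APOE*4 female control 7 (135 CPM), *Npy* in the same *APOE*4 control (36.3 CPM) and *Gad1* in B6 female control 42 (259 CPM). The others were *Pvalb* in *APOE*3 nPM female 55 (74.3 CPM) and male 58 (49.8 CPM) and *Tac1* in *APOE*3 nPM male 53 (30.7 CPM). The nPM response of *Calb2* was lower in *APOE*3 females than in the remaining *APOE*-TR groups by a log2 difference of -1.11 (SE 0.36, adjusted p = 0.0297, limma). That contrast called 16% of all genes, and at 5% FDR 4290 of 15958 genes passed, *Gad1* among them. The call of *Calb2* ended without *APOE*3 female controls 6 and 61, and without any 1 of 19 of the 32 mice.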

How the results depend on the processing

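The call of *Slc32a1* in B6 females, of 1 member, became 0 without a filter (0.727%) and without TMM (1.26%). The share of all genes called stands in parentheses. With a shared spread 4 members were DEGs in B6 males (5.45%). Sample weights called 4 members between alleles in female controls (33.1%), voom 2 for the nPM response by sex (2.49%), and 1 member passed between alleles in *APOE*-TR mice alone (5.48%). For the response of *APOE*3 females against the remaining *APOE*-TR groups the count was 2 without TMM (16.2%), and 0 with sample weights (4.1%) or without controls 6 and 61 (1.75%), where *APOE*3 females had 1 DEG (0.486%). For sex the count was 4 with voom (49.3%), 7 with sample weights (62.8%), 6 in *APOE*-TR mice with (60.2%) and without controls 6 and 61 (57.6%) and 4 in B6 mice (21.7%), where *Cck* turned to -0.031 without controls 0, 2 and 6. Single mice were also left out, with shares given for the fits in which the count changed. For nPM the counts ran from 0 to 1 in B6 females (0.536 to 1.55%) and 0 to 5 in B6 males (1.54%). They ran from 0 to 2 in *APOE*3 females (0.292 and 1.3%) and 0 to 1 in *APOE*4 males (0.639%). For alleles in female controls they ran from 0 to 4 (39%). For the response by sex they ran from 0 to 3 (1.29 to 3.7%), and for that of *APOE*3 females from 0 to 2 (4.56 to 29.8%). The cause was not tested.

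Estimates for nPM over 48 mice, none of them called, turned sign as follows on the log2 scale: without TMM *Sst* -0.028 and *Npy* -0.021, with DESeq2 size factors *Sst* -0.013 and *Npy* -0.006, with voom *Sst* -0.031, *Vip* -0.068 and *Npy* -0.035, with sample weights *Gad2* 0.012, *Vip* -0.028, *Npy* -0.055, *Cck* -0.002, *Tac1* 0.042 and *Calb2* 0.078, in *APOE*-TR mice *Sst* -0.012, *Vip* -0.127 and *Npy* -0.022, in females *Sst* -0.013, *Vip* -0.259, *Npy* -0.126 and *Cck* -0.117, in males *Slc32a1* -0.201, without B6 male controls 0 and 2 *Vip* -0.12, *Npy* -0.044, *Tac1* 0.021 and *Calb2* 0.131, without 0, 2 and 6 *Vip* -0.215, *Npy* -0.109, *Cck* -0.053, *Tac1* 0.06 and *Calb2* 0.271, without *APOE*3 female controls 6 and 61 *Npy* -0.014, and in *APOE*-TR mice without them *Npy* -0.049. With single mice left out *Sst* ran from -0.064 to 0.068, *Vip* from -0.035 to 0.148, *Npy* from -0.046 to 0.036 and *Calb2* from -0.213 to 0.009. Between alleles those that turned were, in females, *Gad1* -0.028 and *Tac1* -0.028, in males *Sst* 0.004, *Vip* 0.099 and *Calb2* 0.194, with sample weights *Calb2* 0.158 and without controls 6 and 61 *Calb2* 0.042. No paired analysis was possible because the numbers of the mice are animal identifiers that pair no samples across groups.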
